A study of Mus musculus with 2 samples.

Results

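Foxp3 nuclei without tissue-repair transcripts were followed in a joint single-nucleus RNA and chromatin accessibility experiment on intestinal CD4 T cells. Members were chosen from their own RNA: nuclei with a total of 500 to 4000 UMIs (unique molecular identifiers, each standing for 1 RNA molecule), at least 1 UMI of Cd3d, Cd3e or Cd3g (chains of the T cell receptor complex), at least 1 UMI of Foxp3, and 0 UMIs of Klrg1, Il1rl1, Penk, Pcsk1 and Nckap5, 5 transcripts of tissue-repair regulatory T cells. The rule held for 33 nuclei of the knockout library and 92 nuclei of the control library, 125 of 6614 deposited barcodes in all. They were 3.74% of the 882 Cd3-positive nuclei of the knockout library (95% interval 2.59 to 5.21) and 4.53% of the 2030 Cd3-positive nuclei of the control library (3.67 to 5.53). All intervals here cover counting error only.

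The knockout library came from CD4creZfp362flox/flox mice and the control library from Zfp362flox/flox mice, so that both genotypes carry the floxed allele of Zfp362, a C2H2 zinc-finger gene, and the libraries differ in the Cre recombinase, which Cd4 regulatory sequence drives throughout the T lineage. Mice were 26 to 33 weeks old, colon and small intestine were pooled, and effector cells positive for CD4 and CD44 and negative for CD62L, CD8a, CD11c, CD45R and F4/80 were sorted. There was 1 library per genotype, the design text names 7 mice without saying how they were divided, and neither the animals nor the 2 organs can be told apart within a library. No test across samples was possible, so that no p-value is given, and a difference between the libraries cannot be told apart from a difference between their animals or preparations.

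Foxp3 is the transcription factor that defines regulatory T cells, which restrain immune responses through surface molecules such as CTLA-4 and through secreted mediators such as interleukin-10. In the mouse gut, peripherally induced regulatory T cells commonly express the transcription factor c-Maf and little Helios (Ikzf2), while the tissue-repair type expresses Gata3, the IL-33 receptor ST2 (Il1rl1), Klrg1 and the growth factor amphiregulin (Areg), often with Helios.

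The rule itself set Foxp3, the Cd3 genes and the 5 tissue-repair genes, whose values are given as a description. Of the members, 23 of 33 knockout and 62 of 92 control nuclei held 1 Foxp3 UMI, so a single molecule placed most of them. A Foxp3 UMI was found in 10.9% of knockout and 11.9% of control Cd3-positive nuclei. In nuclei with no Cd3 UMI but a UMI of Kit, Ncr1 or Arg1, genes of innate lymphoid cells, which should lack Foxp3, the shares were 0.875% (4 of 457) and 0.872% (7 of 803), at median depths of 2048 and 1992 UMIs. The members' own median depths were 1938 UMIs in the knockout library (range 862 to 3795) and 2085.5 UMIs in the control library (range 550 to 3998), against 2142 and 1978 UMIs in the 849 and 1938 other Cd3-positive nuclei. No doublet caller was run, and the upper depth limit left out 14 knockout and 26 control nuclei that otherwise met the rule. The libraries shared 11 barcodes, 0 of them between members of both.

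Just outside the rule, 11 knockout and 26 control Foxp3 nuclei held exactly 1 tissue-repair UMI, and their summed Ctla4 level was 3851 and 3311 CPM (the UMIs of the gene scaled to the total UMIs of the population). Foxp3 nuclei with 2 or more tissue-repair UMIs had 2616 CPM of Ctla4 in the knockout library and 2342 CPM in the control library. Just inside it, members with 1 Foxp3 UMI had 3610 and 3558 CPM of Ctla4, and members with 2 or more had 4250 and 4503 CPM.

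The group was checked against markers of regulatory T cells that the rule did not name. Ctla4, Il10 and Maf were high, and the nuclei are called Foxp3-positive repair-negative nuclei, or members, throughout. The name refers to the 5 genes of the rule alone. Areg was read in 8 of 23 knockout and 18 of 62 control members with 1 Foxp3 UMI. Members were 34.4% of knockout and 38.0% of control Cd3-positive Foxp3 nuclei. Over 4000 UMIs, 14 of 124 knockout and 26 of 116 control Cd3-positive Foxp3 nuclei had no tissue-repair UMI. The part of depth in the absence of these UMIs was not tested.

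Marker lists of other cell types were summed in the members and in the other Cd3-positive nuclei. B cell markers had 9 UMIs (128 CPM) in knockout and 22 UMIs (107 CPM) in control members, against 32.0 and 39.6 CPM in the others, log2 ratios of 2.07 (0.80 to 3.02) and 1.46 (0.72 to 2.08). Of these UMIs, 7 and 19 were of Ighm, the immunoglobulin mu chain, in 3 knockout and 9 control nuclei, with 42.9% and 47.4% of them in 1 nucleus, and Ms4a1, Pax5 and Blnk were at 0 in members of both libraries. Plasma cell, epithelial and stromal markers had 10, 11 and 12 UMIs in knockout members and 20, 9 and 24 UMIs in control members, and the interval of each ratio over the others included no difference. Myeloid markers had 313 CPM in knockout members, with 9 of 13 genes at 0, and 612 CPM in control members, with 7 at 0, against 585 and 546 CPM in the others. Innate lymphoid markers had 739 CPM in knockout and 1170 CPM in control members, against 1310 and 1169 CPM in the others, with Ncr1, Arg1 and Tyrobp at 0 in members of both libraries. The part of these lists in the gene ratios was not tested. A Kit, Ncr1 or Arg1 UMI was present in 6.06% of knockout and 7.61% of control members, against 9.07% and 8.77% of the other Cd3-positive nuclei. Zfp362 itself was too sparse to check the genotype in members, with 0 UMIs in knockout and 1 UMI in control members. In the other Cd3-positive nuclei it had 6.7 CPM in the knockout library and 12.4 CPM in the control library.

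Ctla4, which encodes an inhibitory receptor that competes with CD28, was the most abundant of the defining markers. It reached 3796 CPM in knockout and 3864 CPM in control members, against 1522 and 1460 CPM in the other Cd3-positive nuclei. All 33 knockout members and 85 of 92 control members had a Ctla4 UMI, with medians of 7 and 6.5 UMIs per nucleus. A Ctla4 UMI was present in 68.1% and 64.5% of the other Cd3-positive nuclei and in 11.2% and 7.97% of the Cd3-negative nuclei with innate lymphoid genes. The log2 ratio of members over other Cd3-positive nuclei was 1.32 (95% interval 1.13 to 1.50) in the knockout library and 1.41 (1.30 to 1.51) in the control library.

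Il10, the gene of interleukin-10, had 1194 CPM in knockout and 806 CPM in control members, against 248 and 252 CPM in the other Cd3-positive nuclei, log2 ratios of 2.27 (1.91 to 2.60) and 1.68 (1.43 to 1.91). Its RNA was concentrated in a minority of nuclei: 13 of 33 knockout members and 31 of 92 control members had any. Maf, which encodes the transcription factor c-Maf, had 1422 and 1058 CPM in members, against 665 and 684 CPM in the others. Its log2 ratio was 1.10 (0.79 to 1.39) in the knockout library and 0.63 (0.42 to 0.83) in the control library. Transcripts of all 3 genes were present together in 39.4% of knockout and 28.3% of control members, against 8.24% and 9.55% of the others, and 0 of 33 and 3 of 92 members had none of them, against 18.6% and 19.7%.

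After every nucleus was thinned to 1000 UMIs, Il10 was detected in 40.6% of knockout and 23.1% of control members, against 8.27% and 9.91% of the other Cd3-positive nuclei. Ctla4 was then detected in 93.8% and 87.9% of members, against 55.0% and 52.6% of the others. Unthinned, Il10 was found in 93 of 849 and 260 of 1938 of the others.

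**Figure D1:**
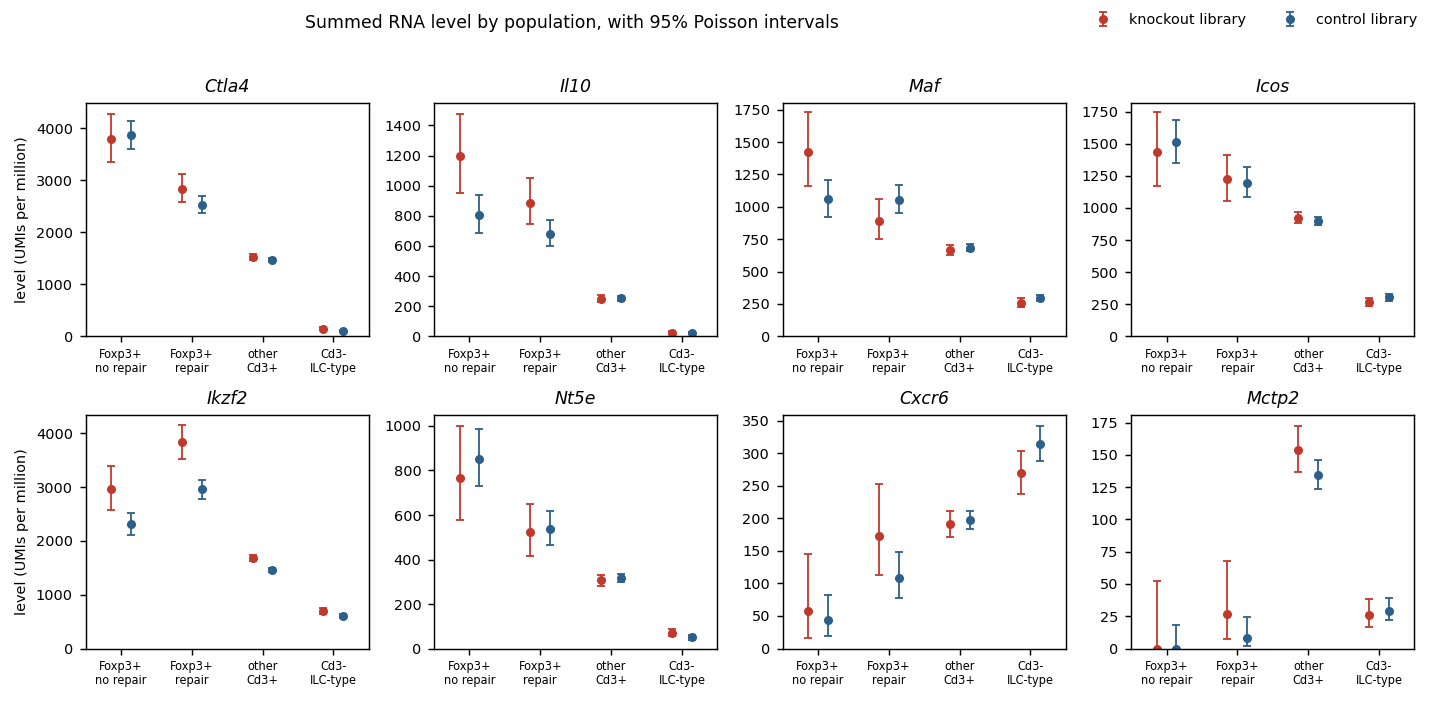
Summed RNA level of 8 genes (CPM, linear axes from 0) in 4 populations of each library: members (Foxp3+ no repair), Foxp3 nuclei with tissue-repair UMIs, other Cd3-positive nuclei, which include the second population, and Cd3-negative nuclei with a Kit, Ncr1 or Arg1 UMI. Points are sums over nuclei and bars are 95% Poisson intervals; Ctla4, Il10, Maf, Icos and Nt5e are highest in members in at least 1 library, Ikzf2 is highest in the tissue-repair nuclei, Cxcr6 in the Cd3-negative nuclei, and Mctp2 is at 0 in members of both libraries.

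Across all genes, the comparison of members with the other Cd3-positive nuclei of their own library asked what else accompanied this Foxp3 RNA. Genes were compared where at least 10 UMIs would be expected in members at equal rates, and a gene was called when its log2 ratio, with 0.5 UMI added to both sums, was at least 1 in size. Leaving out the 9 genes of the rule, 36 of 1431 genes (2.52%) were at least 2-fold higher and 101 (7.06%) at least 2-fold lower in knockout members. In control members 32 of 3481 (0.919%) were higher and 108 (3.1%) lower. The median gene stood at -0.05 in the knockout library and 0.00 in the control library.

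Of the 1431 genes compared in both libraries, 8 (0.559%) were at least 2-fold higher in both: Ctla4, Il10, Nt5e, Phlpp1, Adamts6, Snx13, Myo3b and Frmd5. For Il10, Nt5e, Myo3b and Frmd5, 1 nucleus held over 20% of the UMIs of the members or of the others in at least 1 library. Nt5e encodes CD73, the ectoenzyme that makes adenosine from AMP. It had 768 CPM in knockout and 850 CPM in control members, against 307 and 317 CPM in the others, log2 ratios of 1.34 (0.89 to 1.73) and 1.43 (1.19 to 1.65). Phlpp1, a phosphatase acting on Akt, had 1152 and 1058 CPM in members, against 346 and 444 CPM in the others. Adamts6, a secreted metalloprotease, had 1408 and 1335 CPM, against 553 and 535 CPM. Snx13, a sorting nexin, had log2 ratios of 1.12 and 1.07, but among the 10 knockout members with at least 2 Foxp3 UMIs its ratio was -0.42. Myo3b, a class III myosin, had log2 ratios of 2.05 and 1.19, and Frmd5, a FERM domain protein, 2.19 and 1.42. In the knockout library 1 nucleus held 30.7% of the members' Frmd5 UMIs.

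At the other end, 14 genes (0.978%) were at least 2-fold lower in members of both libraries. For all of them but Mctp2, 1 nucleus held over 20% of the UMIs of the members or of the others in at least 1 library. Mctp2, which encodes a membrane protein with multiple C2 domains, had 0 UMIs in members of both libraries, against 298 UMIs (154 CPM) in the knockout and 552 UMIs (134 CPM) in the control others. With 3 UMIs as the floor per library it was at least 3.61-fold lower in knockout and at least 9.21-fold lower in control members. The Foxp3 nuclei with tissue-repair UMIs also had little of it, with 4 and 3 UMIs (26.5 and 8.3 CPM). Pde3b, a phosphodiesterase of cyclic nucleotides, had 85.3 and 112 CPM in members, against 596 and 583 CPM in the others, log2 ratios of -2.69 and -2.35. With the 14 knockout and 26 control nuclei over 4000 UMIs included, the log2 ratio of Mctp2 was -0.61 and -1.88.

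Other genes at least 2-fold lower in members of both libraries had varied roles. Themis, an adaptor of T cell receptor signalling in thymocytes, had 99.5 CPM in knockout and 218 CPM in control members, against 644 and 612 CPM. Cd40lg, the CD40 ligand through which helper T cells act on B cells and myeloid cells, was read 8 and 21 times, 114 and 102 CPM in members, against 343 and 335 CPM in the others. Cxcr6, a chemokine receptor of tissue-resident T cells, was read 4 and 9 times, with log2 ratios of -1.58 (-3.63 to -0.38) and -2.09 (-3.31 to -1.24). Nkg7, a protein of cytotoxic granules, had log2 ratios of -1.29 and -1.36, and Rapgef2, an exchange factor for Rap proteins, -1.11 and -1.69. Gzma, Ccl5 and the chemokine gene Xcl1 were lower too, but 1 control nucleus held 60.0%, 58.6% and 72.7% of their control member UMIs.

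**Figure D2:**
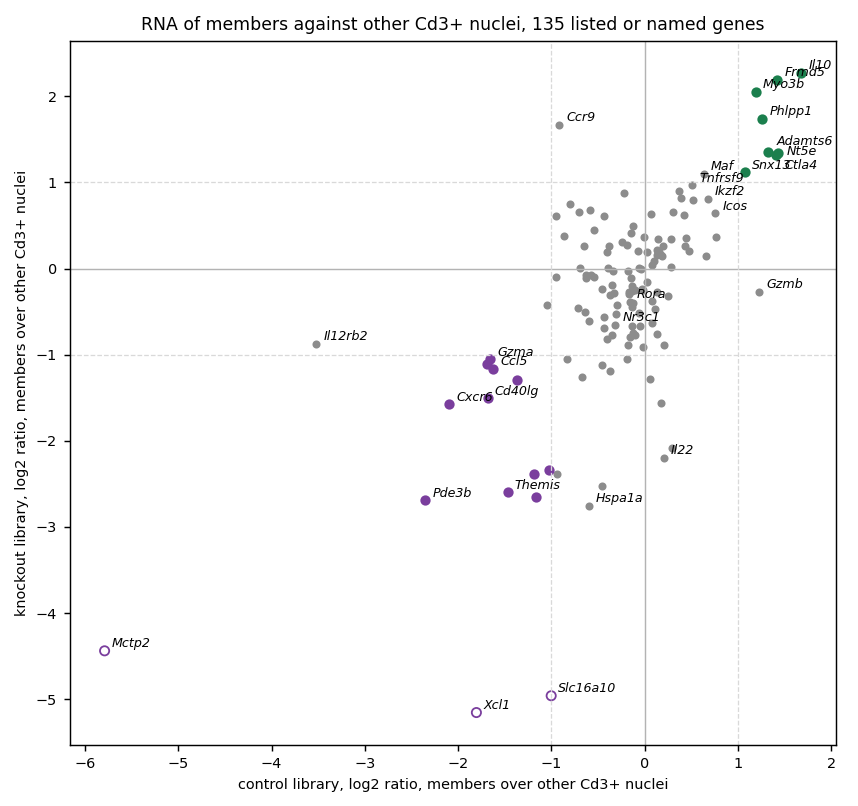
Log2 ratio of members over other Cd3-positive nuclei for 135 listed or named genes, control library on the horizontal and knockout library on the vertical axis, with dashed lines at a 2-fold difference. Green points are at least 2-fold higher and purple points at least 2-fold lower in both libraries, and open circles had 0 member UMIs in at least 1 library, so that their position depends on the added 0.5 UMI; Il10 lies at 2.27 and 1.68, and Ccr9 is at 1.67 in the knockout and -0.91 in the control library.

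By function, genes of regulatory T cell identity lay above the median gene in both libraries. Of the listed genes past the minimum, with Foxp3 left out, 7 of 9 were above 0 in the knockout library and 15 of 16 in the control library, against 46.5% and 50.7% of all genes compared. Their medians were 0.34 and 0.45. Ctla4 was called in both libraries, and Nrp1, a surface receptor of thymus-derived regulatory T cells, in the control library at 1.23, with 24.2% of its UMIs in 1 nucleus. Ikzf2 (Helios) had 2957 and 2311 CPM in members, against 1688 and 1451 CPM in the others, log2 ratios of 0.81 (0.60 to 1.01) and 0.67 (0.53 to 0.81). Il2ra, the high-affinity IL-2 receptor chain, was at 0.20 and 0.47, and the receptor genes Tnfrsf18 (GITR) and Tnfrsf4 (OX40) were between 0.14 and 0.43.

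The co-stimulatory receptor gene Icos, at 1436 CPM in knockout and 1510 CPM in control members against 924 and 897 CPM in the others, had log2 ratios of 0.64 and 0.75. Of suppressive effector genes, 5 of 6 and 8 of 11 were above 0, with medians of 0.34 and 0.18, with Il10 and Nt5e called in both, while Tgfb1, the gene of TGF-beta 1, was at 0.19 and 0.14. Tnfrsf9, the receptor 4-1BB, had log2 ratios of 0.97 (0.70 to 1.21) and 0.50 (0.31 to 0.69).

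Helper cytokines were lower in the members. Summed over the list, they had 1052 CPM in knockout and 908 CPM in control members, against 1969 and 1793 CPM in the others, log2 ratios of -0.89 (-1.26 to -0.57) and -0.98 (-1.20 to -0.77). Of 18 listed genes, 10 had 0 UMIs in knockout and 6 had 0 UMIs in control members. Of those past the minimum, 4 of 4 and 5 of 7 were at least 2-fold lower, against 7.06% and 3.1% of all genes compared. The list medians were -1.34 and -1.62. Ifng, the gene of interferon-gamma, had 0 UMIs in knockout members against 256 UMIs in the others, at least 3.10-fold lower, and 4 UMIs against 584 in the control library (log2 ratio -2.70). With nuclei over 4000 UMIs included, the knockout ratio of Ifng was -0.49 and the list median -0.15. Il4 was read once in control members and 289 times in the control others. Il2, whose product regulatory T cells consume, and Csf2 had 0 UMIs in control members, against 176 and 132 UMIs, at least 2.94-fold and 2.20-fold lower. Il17a had 0 and 2 UMIs in members, and Il22 was at -2.19 in the knockout library and 0.20 in the control library.

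Of the Th1 and cytotoxic genes, 3 of 8 in the knockout and 6 of 10 in the control library were at least 2-fold lower. The shares of all genes compared were 7.06% and 3.1%, and the list medians were -0.30 and -1.44. Above 0 were 4 of 8 genes in the knockout and 1 of 10 in the control library. Summed over the list, the log2 ratios were 0.19 (0.06 to 0.31) and -0.53 (-0.63 to -0.43). Tbx21, the transcription factor T-bet, was read 6 times in control members against 372 UMIs in the others (log2 ratio -1.52), and Il12rb2, an IL-12 receptor chain, was at -0.87 in the knockout library, with 72.0% of its UMIs in 1 nucleus, and -3.52 in the control library. Th17 genes had medians of -0.39 and 0.20, with 1 of 5 and 6 of 11 above 0.

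Receptors that guide lymphocytes to tissues were mixed, with 1 of 6 and 5 of 11 listed gut homing genes above 0 and medians of -0.58 and -0.13. In control members Ccr2 was at 1.29 (0.80 to 1.72) and Ccr4, a chemokine receptor of skin-homing and regulatory T cells, at 1.26 (0.54 to 1.86), while knockout members held 18 and 2 UMIs of them. Ccr7, which directs cells to lymph nodes, was at 1.13 in control members, and 83.3% of its 6 knockout UMIs came from 1 nucleus. Naive and recirculating genes as a list had medians of -0.19 and 0.16, with Foxp1, a forkhead factor of quiescent T cells, at 0.15 and 0.66.

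Genes that work with Foxp3 or feed its main inputs lay close to the median gene. Foxp3 partner genes had 7 of 13 and 7 of 16 above 0, with medians of 0.00 and -0.03. IL-2 and STAT5 genes had medians of 0.20 and 0.05, TGF-beta genes 0.00 and -0.11, and NF-kappaB genes -0.03 and -0.10. Single genes departed from this. Ikzf1 (Ikaros) was at -1.26 and -0.68, and Tgfbr2, the type 2 TGF-beta receptor, at -1.05 and -0.84. Itgav, the integrin chain that pairs with beta 8, was at 0.90 (0.66 to 1.13) and 0.37 (0.19 to 0.54), and Foxo1, a forkhead factor required in regulatory T cells, at 0.62 and 0.42.

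T cell receptor signalling genes lay a little lower in the members of both libraries. Of those past the minimum, 2 of 11 knockout and 0 of 13 control genes were above 0, with medians of -0.42 and -0.44. The inhibitory receptor gene Cd5 was at -0.45 and -0.72. Listed nuclear receptors had 0 of 4 and 0 of 5 above 0, among them the glucocorticoid receptor gene Nr3c1 at -0.65 and -0.32. Of all genes compared, 46.5% in the knockout and 50.7% in the control library were above 0. Heat shock genes, which respond to tissue dissociation, had a median of -0.91 in the knockout and -0.14 in the control library. Hspa1a had 171 CPM in knockout and 384 CPM in control members, against 1200.0 and 586 CPM in the others. The part of this list in the gene ratios of the knockout library was not tested.

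**Figure D3:**
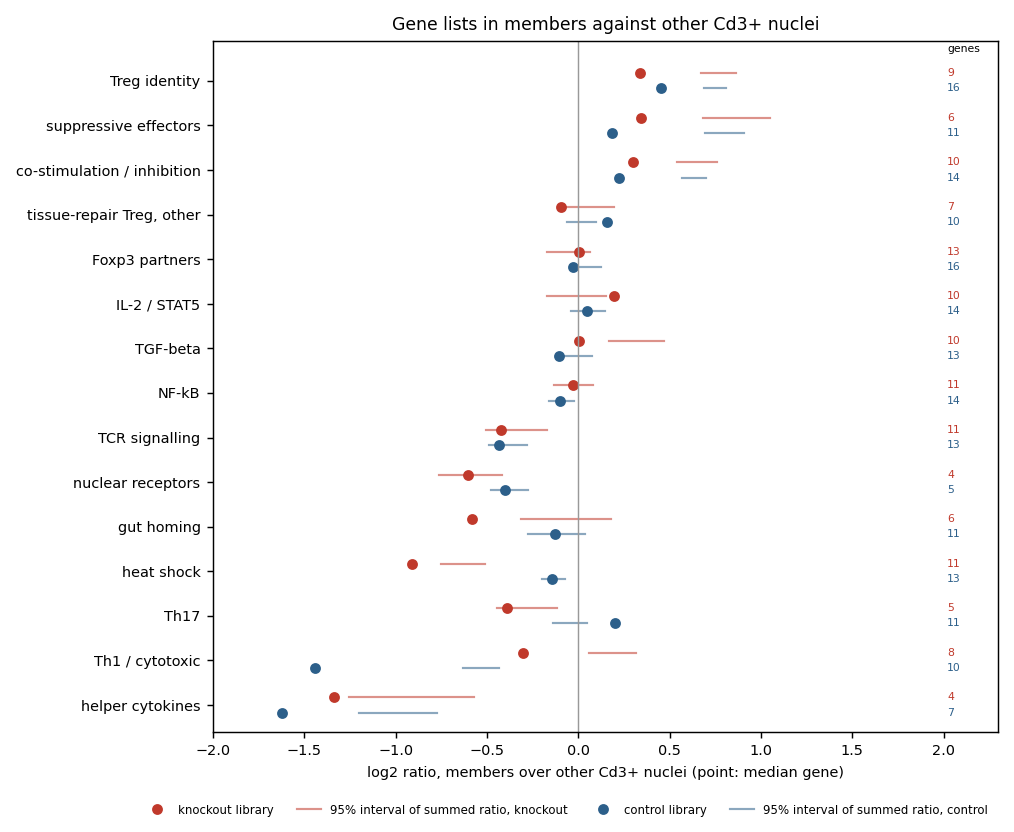
Gene lists in members against other Cd3-positive nuclei. Points are the median log2 ratio of the genes past the minimum, whose number stands at the right, and lines are the 95% interval of the ratio of summed UMIs, which its most abundant genes dominate; the lowest medians are those of helper cytokines, -1.34 in the knockout and -1.62 in the control library.

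Set against the other Foxp3 nuclei, the 63 knockout and 150 control nuclei with tissue-repair UMIs, members had more Ctla4 and less RNA of several genes listed for the repair type that the rule did not use. The log2 ratio of members over repair nuclei was 0.42 (0.19 to 0.64) and 0.62 (0.48 to 0.75) for Ctla4 and 0.56 and 0.66 for Nt5e. It was -1.07 and -1.34 for Gata3, a transcription factor of the repair type, and -1.17 and -1.45 for Areg. The receptor genes Tnfrsf9 (-0.42 and -0.98), Tnfrsf4 (-0.96 and -0.70), Tnfrsf18 (-0.64 and -0.65) and Il2ra (-0.62 and -0.64) were also lower in members. Il10 was at 0.43 and 0.24, and Maf at 0.67 and 0.00. Relative to all other Cd3-positive nuclei, which include the repair nuclei, Gata3 was at -0.10 and -0.54 and Areg at 0.15 and 0.18. Nuclei with neither Foxp3 nor tissue-repair UMIs had less Areg, 141 and 138 CPM, and 236 and 255 CPM of Gata3. Members with 1 Foxp3 UMI had 381 and 388 CPM of Areg and 481 and 331 CPM of Gata3. Members with 2 or more had 293 and 419 CPM of Areg and 195 and 180 CPM of Gata3.

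Much of the Ctla4, Maf and Nt5e pattern was shared with Il10-positive nuclei that had no Foxp3 UMI. Of those 73 knockout and 200 control nuclei, 40 and 103 had no tissue-repair UMI either, and the remainder held at least 1. In all 73 and 200 nuclei Ctla4 had 3172 and 3048 CPM, Maf 1179 and 1160 CPM and Nt5e 766 and 814 CPM. Mctp2 had 111 and 76.7 CPM there and 0 UMIs in members. These differences were not tested.

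Members were not uniform. A split by Ikzf2 gave 11 knockout and 34 control members without an Ikzf2 UMI and 22 knockout and 58 control members with one. Absence of a UMI is not absence of the RNA, and those without one were shallower, with medians of 1817 and 1947.5 UMIs against 2150.5 and 2202 UMIs. Of the genes that could be compared, 4.79% of 355 were at least 2-fold higher and 9.3% at least 2-fold lower in knockout members without Ikzf2, and 3.96% and 6.15% of 1415 in control members.

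Il10, Ctla4, Icos and Maf lay higher in members without Ikzf2. Il10 had 2818 CPM in knockout members without and 555 CPM in those with Ikzf2, a log2 ratio of 2.33 (1.67 to 3.05), and 1319 and 548 CPM in the control library, 1.27 (0.81 to 1.73). Ctla4 had 6189 CPM without and 2854 CPM with Ikzf2 in the knockout library, and 5173 and 3205 CPM in the control library. The log2 ratios were 1.49 and 0.72 for Icos and 0.77 and 0.62 for Maf. Ccr2, a receptor for monocyte chemokines, was at 1.96 and 1.48. With every member thinned to 1000 UMIs before the split, Il10 was at 1.91 and 1.80. Among control members with at least 2 Foxp3 UMIs, the Il10 ratio was -0.13.

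Other genes listed for the repair type, beyond the 5 of the rule, had medians of -0.85 and -1.19 in members without over members with Ikzf2. Of those past the minimum, 1 of 4 in the knockout library and 5 of 8 in the control library were at least 2-fold lower. The shares of all genes compared in this split were 9.3% and 6.15%. Of the listed genes, 0 and 2 were above 0. Gata3 was read 3 times in knockout members without and 25 times in those with Ikzf2 (log2 ratio -1.52), and 2 and 56 times in the control library (-3.51). Areg had 0 UMIs without and 25 UMIs with Ikzf2 in the knockout library and a log2 ratio of -1.65 in the control library. In the knockout library Gata3 and Areg, like Itgb8 and Cd83, were below the minimum of 10 expected UMIs. Rora, a nuclear receptor, was at -0.93 and -1.37, Rgs2, a regulator of G protein signalling, at -2.74 and -1.96, and Rel, the NF-kappaB subunit c-Rel, at -1.52 and -1.66, with 61.1% of its UMIs in knockout members without Ikzf2 in 1 nucleus. Itgb8, an integrin chain with which regulatory T cells activate latent TGF-beta, was at -2.50 and -1.86. After thinning, Itgb8 was at -0.54 and -0.21, Rgs2 at -1.82 and -0.58, and Gata3 at -0.64 and -3.01. Tox was at -1.19, with 77.3% of its UMIs in knockout members without Ikzf2 in 1 nucleus, and at -1.43, but at 0.16 among knockout members with at least 2 Foxp3 UMIs.

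**Figure D4:**
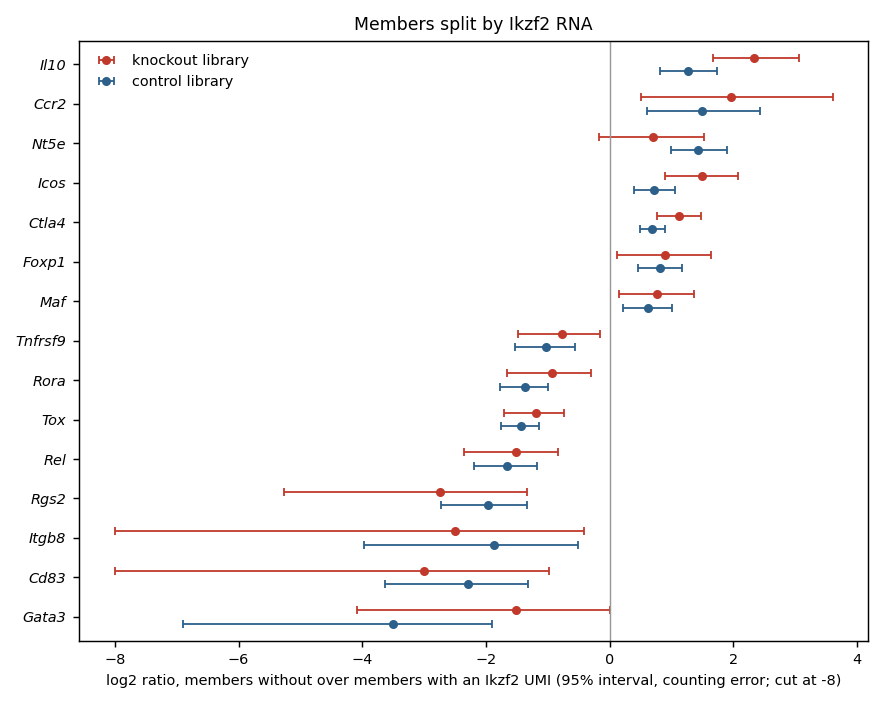
Log2 ratio of summed RNA in members without an Ikzf2 UMI over members with one, for 15 genes in each library, with 95% intervals that cover counting error only and are cut at -8. Il10, Ctla4, Icos and Maf lie above 0 in both libraries (Il10 2.33 and 1.27) and Gata3, Cd83, Rgs2, Rel and Rora below it.

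A second split, by Il10 RNA, was chosen after these values were seen. The 13 knockout and 31 control members with an Il10 UMI were set against the 20 and 61 without one. Of the genes compared, 9.13% of 504 were at least 2-fold higher and 9.72% lower in the knockout library, and 4.03% and 5.79% of 1365 in the control library. Ctla4 was at 1.55 and 1.10, Maf at 1.87 and 1.25, and Nt5e at 1.15 and 1.41. Ikzf3 (Aiolos), a family member of Helios, was at 1.48 and 1.04, and Ikzf2 at -3.25 and -0.75. Gata3 was at -1.37 (-3.23 to -0.05) and -0.69 (-1.74 to 0.19).

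Chromatin accessibility was read in the same nuclei as fragments in peaks called separately in each library. Knockout members held 149336 fragments and control members 276083. Peaks with at least 10 expected fragments were at least 2-fold higher in 13 of 2992 cases (0.434%) and lower in 37 (1.24%) in knockout members, and higher in 21 of 7904 (0.266%) and lower in 105 (1.33%) in control members. Of 2991 overlapping peaks that met this minimum in both libraries, 0 were called higher in both (0.0%) and 0 lower in both (0.0%). No single peak is therefore named from the all-peak comparison. The loci of the RNA genes were read instead, as fragments within 10 kb of each gene.

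At Mctp2 (chr7:72077830-72306608, minus strand, mm10), accessibility was low in members, as was the RNA. Knockout members had 1 fragment at the locus against 336 in the others, a log2 ratio of -3.14 (-9.03 to -1.23), and control members 3 against 561, -2.85 (-5.35 to -1.52). The peak over the annotated start had 0 fragments in members of both libraries, against 116 and 166 in the others. The sequences around the start sites of Mctp2, which was unread in members, and of Ctla4 and Nt5e, which were high, are shown because accessibility was compared over these windows. They run from 250 bases before to 50 bases after the start in RefSeq on GRCm38.p6, at chr7:72306546-72306845 on the minus strand, chr1:60908775-60909074 on the plus strand and chr9:88327359-88327658 on the plus strand. Capitals mark a RUNX motif, which reads TGTGGT on the opposite strand.
Mctp2: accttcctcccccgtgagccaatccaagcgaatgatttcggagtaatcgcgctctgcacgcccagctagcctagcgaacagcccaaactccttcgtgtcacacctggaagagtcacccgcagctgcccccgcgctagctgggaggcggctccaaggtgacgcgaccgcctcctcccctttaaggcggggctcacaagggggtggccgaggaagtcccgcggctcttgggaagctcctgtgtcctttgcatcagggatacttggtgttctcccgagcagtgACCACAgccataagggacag
Ctla4: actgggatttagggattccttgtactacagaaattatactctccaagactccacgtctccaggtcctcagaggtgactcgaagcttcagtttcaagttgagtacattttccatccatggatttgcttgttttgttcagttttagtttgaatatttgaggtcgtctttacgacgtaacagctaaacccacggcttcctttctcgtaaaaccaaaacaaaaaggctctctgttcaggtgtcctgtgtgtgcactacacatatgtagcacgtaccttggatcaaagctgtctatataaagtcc
Nt5e: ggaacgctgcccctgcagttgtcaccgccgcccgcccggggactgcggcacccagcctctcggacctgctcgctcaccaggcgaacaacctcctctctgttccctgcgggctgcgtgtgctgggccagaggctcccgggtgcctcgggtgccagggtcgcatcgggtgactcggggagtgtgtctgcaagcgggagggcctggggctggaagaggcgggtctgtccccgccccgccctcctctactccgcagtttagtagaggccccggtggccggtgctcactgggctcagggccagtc

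These windows were searched on both strands for 7 motifs: TGTTTAC for forkhead factors, TGTGGT for RUNX, TGANTCA for AP-1, TGACGTCA for CREB, TGCTGAC for MAF, AGATAA for members of the GATA family and TAGGTCA for ROR. The Mctp2 window held 1 match, the RUNX letters at 30 bases after the start, and 16.8% of all 32817 RefSeq windows of that length hold them. The Ctla4 and Nt5e windows held 0 matches. The peak over the Ctla4 window had 5 fragments in members of each library, against 81 and 149 in the others, and that over the Nt5e window 3 and 11, against 114 and 199. Their intervals included no difference.

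The loci of genes with high RNA were read in the same way, and the difference between RNA and accessibility ratios was not tested. Il10 (chr1:131019845-131024974) had 20 fragments in knockout members against 253 in the others, a log2 ratio of 1.04 (0.27 to 1.67), and 31 in control members against 556, a ratio of 0.33. A peak over an Il10 exon, chr1:131022521-131023358 in the knockout and chr1:131022528-131023296 in the control library, had 6 against 27 fragments (2.59, 0.93 to 3.81) and 7 against 76 (1.12, -0.33 to 2.15). The neighbouring exon peak, chr1:131021224-131022071 and chr1:131021236-131022091, had 2 against 70 (-0.15) and 4 against 135 fragments (-0.44). Ctla4 (chr1:60887000-60915832) had 38 against 678 (0.53, 0.00 to 0.98) and 61 against 1150 fragments (0.25). Ikzf2 had 32 against 776 (0.09) and 89 against 1300 (0.61, 0.28 to 0.92). Other loci showed less. Locus ratios were -0.06 and -0.12 for Maf, 0.03 and -0.42 for Icos, and -0.17 and 0.31 for Nt5e. Phlpp1 was at 0.37 and 0.29, Snx13 at 0.30 and 0.29, and Frmd5 at 0.56 and 0.68. The intervals of these 6 genes included no difference. Adamts6 was at 1.10 (0.28 to 1.76) and 0.08, and Myo3b at 0.26 and 0.48 (0.04 to 0.86).

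At Foxp3 (chrX:7573644-7595245) itself, which the rule used through its RNA, the locus had 23 fragments in knockout members against 555 in the others (0.11) and 47 in control members against 967 (0.13). An intronic peak, chrX:7583699-7584581 in the knockout and chrX:7583722-7584600 in the control library, had 3 against 40 and 7 against 70 fragments, log2 ratios of 1.14 (-1.40 to 2.58) and 1.24 (-0.21 to 2.27). The annotation also places this peak in an intron of Gm36995, which overlaps Foxp3. It was 1 of 13 peaks at the locus in each library and lay below the minimum of 10 expected fragments. A peak within Foxp3 annotated as a start site had 7 against 210 (-0.14) and 14 against 334 fragments (-0.05). At Pde3b and Themis, where RNA was lower in members, the locus ratios were -1.14 and -0.54, and -1.13 and -0.67.

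Knockout members were then set against control members, with the same ratio in the other Cd3-positive nuclei beside most of the genes. The intervals of Ctla4 (log2 ratio -0.02, -0.23 to 0.18), Icos (-0.07, -0.41 to 0.26) and Nt5e (-0.14, -0.61 to 0.30) included no difference. Il10 was at 0.57 (0.17 to 0.95), Maf at 0.43 (0.07 to 0.77) and Ikzf2 at 0.36 (0.11 to 0.59), against -0.02, -0.04 and 0.22 in the others. With at least 2 Foxp3 UMIs, Il10 was lower in knockout members, at 684 CPM against 927 CPM in control members. Maf (1514 and 957 CPM) and Ikzf2 (2931 and 2020 CPM) stayed higher in these knockout members. With 1 Foxp3 UMI, 70 Il10 UMIs came from 8 of 23 knockout members. Of 2679 genes, 113 (4.22%) were at least 2-fold higher and 222 (8.29%) at least 2-fold lower in knockout members, and the median gene was at -0.03. With 2 UMIs added to both sums in place of 0.5, 2.91% were at least 2-fold lower.

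A cytokine receptor gene was among those higher in knockout members. Il6st, the shared receptor chain gp130 of the IL-6 family, had 398 CPM in knockout and 126 CPM in control members (log2 ratio 1.66, 0.83 to 2.49), against a ratio of -0.02 in the others. Epas1, which encodes the hypoxia-inducible factor HIF-2 alpha, had 583 and 175 CPM (1.74), against 0.38. Abcc1, an efflux transporter, was at 2.50 (1.15 to 4.10) from 14 and 7 UMIs, and Mir155hg, the host transcript of miR-155, at 1.65 from 15 and 14 UMIs. Both genes were at 0.09 in the others. With nuclei over 4000 UMIs included, Epas1 was at 0.93, Abcc1 at 0.86, and Il6st and Mir155hg at 0.26.

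Of the genes with high ratios in knockout members, Cd4 and the peptide transporter gene Slc15a2 were also high in the other nuclei. Cd4 had 782 CPM in knockout and 257 CPM in control members (1.60, 1.03 to 2.18), against a ratio of 1.56 in the other Cd3-positive nuclei. The Cd4 locus held 569 CPM of fragments in knockout and 101 CPM in control members, and 391 and 112 CPM in the others. The transgene of the knockout carries Cd4 regulatory sequence, and its part in these Cd4 values was not tested. Slc15a2 was at 2.05 in members and 1.14 in the others.

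By list, regulatory identity genes lay on both sides of 0, with 7 of 15 genes above it and a median of -0.02, against 48.4% of all 2679 genes above 0. The median of the Th1 and cytotoxic genes was 1.03. Of these genes, 9 of 9 were above 0 in knockout over control members. At least 2-fold higher were 5 of them, against 4.22% of all genes. Among them was the chemokine gene Ccl4, whose 37 knockout UMIs all came from 1 nucleus. Heat shock genes had 9 of 12 below 0 and a median of -0.94. Of the 12, 5 were at least 2-fold lower, against 8.29% of all genes. The part of this list in the other ratios was not tested.

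Lower in knockout members were Havcr2, the inhibitory receptor TIM-3, with 1 UMI against 26 in control members, and Ust, a sulfotransferase of glycosaminoglycans, with 1 against 41. The fatty acid elongase gene Elovl6 and Zfp800, a zinc-finger gene, had 0 UMIs in knockout and 27 each in control members, at least 3.07-fold lower. Mlxip, the glucose-sensing factor MondoA, had 0 against 24 UMIs, at least 2.73-fold lower. In the other Cd3-positive nuclei the ratios were -0.25 for Havcr2, -0.13 for Elovl6, 0.49 for Zfp800 and 0.37 for Mlxip. Ust was lower in the others too, at -0.58 (-0.84 to -0.33).

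Of the 1431 genes, 12 stood on opposite sides of the other Cd3-positive nuclei in the libraries (0.839%), and the listed genes Ccr9, Il18r1 and Stat4 were among them. Ccr9, the receptor that directs lymphocytes to the small intestine, had 34 UMIs in knockout members, a log2 ratio over the others of 1.67 (1.09 to 2.16), with 35.3% of them in 1 nucleus, and 13 UMIs in control members, -0.91 (-1.89 to -0.18). Il18r1, a chain of the IL-18 receptor, was at 0.61 and -0.43, and Stat4, which signals for IL-12, at 0.27 and -0.38. The share of small intestine in each pool is not given in the sources used here, and its part in the Ccr9 values was not tested.

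**Figure D5:**
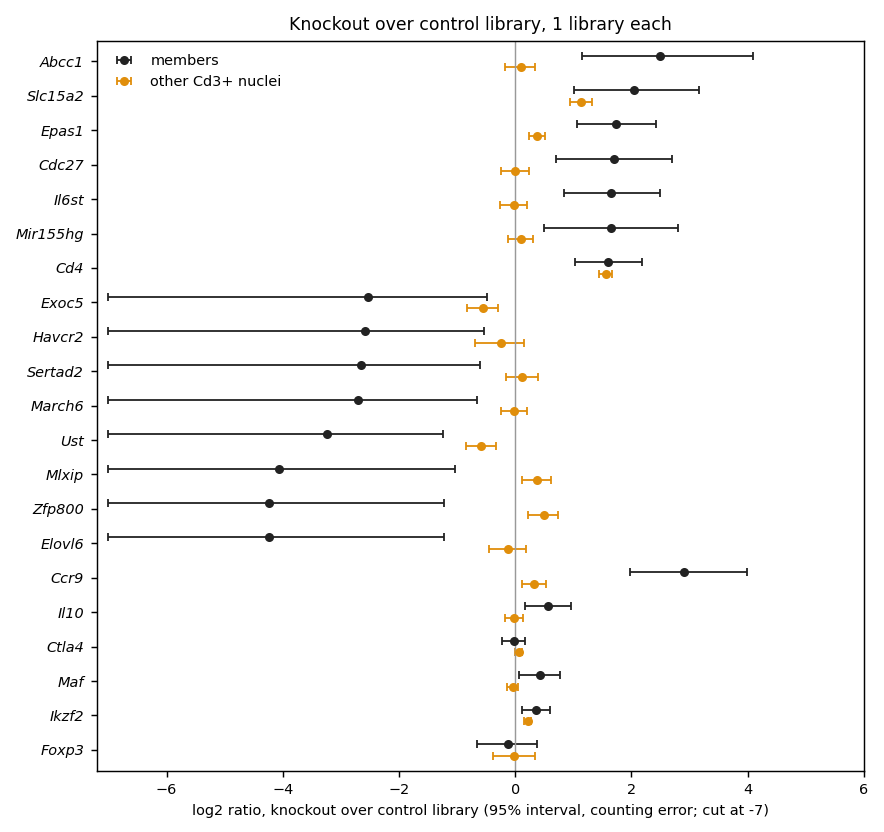
Log2 ratio of the knockout over the control library for 21 genes in members (black) and in the other Cd3-positive nuclei (orange), with 95% intervals that cover counting error only and are cut at -7. Il6st and Epas1 lie at 1.66 and 1.74 in members and at -0.02 and 0.38 in the others, while Cd4 is at 1.60 and 1.56; genes with 0 knockout UMIs are placed by the added 0.5 UMI.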

How the data were processed

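RNA and accessibility were measured in the same nuclei, with 1 library per genotype. The authors deposited 1 count matrix per library with gene and peak rows. Cell Ranger ARC 2.0.1 made it, per the file headers, and mm10 is the build that the submitters' processing notes name. Gene rows are raw UMI counts. Of the peak counts, 90.7% in the knockout and 91.7% in the control library were even, so they were halved and rounded up per nucleus and peak and called fragments. Any filter before deposit, beyond barcode calling, is not given in the sources used here.

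The members and the gene lists were chosen with earlier results of these data known. UMIs were summed per library and population and divided by the population's total (CPM). Log2 ratios used a pseudocount of 0.5 UMI with exact conditional 95% intervals of the ratio of 2 counts, shares had Clopper-Pearson and levels Poisson intervals. UMIs and fragments of 1 nucleus are not independent, so that these intervals are too narrow for a difference between animals. Genes of members and others were compared at 10 or more expected UMIs, and knockout with control members at 20 or more UMIs in both together. Genes were named where the call held in both libraries, or, between genotypes, where the ratio was among the most extreme with at most 20% of the UMIs of the higher library in 1 nucleus, and from the gene lists at either end. The Il10 split, Xcl1 and the Mctp2 bound were chosen after values were seen. Results on some genes are not reported here. Thinned values drew 1000 UMIs from each nucleus and left out shallower nuclei. Loci took peaks within 10 kb and gene positions from GENCODE vM21, and windows came from RefSeq, which had one for 6 of 12 genes looked up. Python 3.11.15, numpy 2.4.6, scipy 1.17.1 and pandas 2.3.3 were used, and the ratio code was checked on simulated data. Alternatives changed the depth, Foxp3, Cd3 and exclusion limits, the comparator, the minimum, the pseudocount and the weighting of nuclei.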

Additional observations from a re-analysis of the deposited data

Results flagged for a closer look

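Foxp3 nuclei without tissue-repair UMIs were also found outside the rule. Above the depth limit, 14 knockout and 26 control Cd3-positive Foxp3 nuclei without tissue-repair UMIs had 2429 and 1667 CPM of Ctla4, at median depths of 6536.5 and 5776 UMIs. They had 872 and 301 CPM of Il10, 287 and 365 CPM of Nt5e, and 158 and 69.0 CPM of Mctp2, which was at 0 in members. In the other Cd3-positive nuclei of the rule's depth range, Ctla4 had 1522 and 1460 CPM, Il10 248 and 252 CPM, Nt5e 307 and 317 CPM and Mctp2 154 and 134 CPM. Without any Cd3 UMI, 10 knockout and 27 control nuclei met the rest of the rule, with 4888 and 3380 CPM of Ctla4, 1389 and 1016 CPM of Il10 and 1338 and 1309 CPM of Nt5e. Mctp2 had 3 UMIs (154 CPM) there in the knockout library, all in 1 nucleus, and 2 UMIs (39.1 CPM) in the control library.

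The ratio of members over other Cd3-positive nuclei had opposite signs in the libraries, with both intervals off 0, for the listed genes Ccr9, Il18r1 and Stat4. Ccr9 was at 1.67 in the knockout and -0.91 in the control library. Il18r1 was at 0.61 and -0.43 and Stat4 at 0.27 and -0.38. The difference between the libraries was not tested.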

How the results depend on the processing

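Depth and the number of members limit every value: a gene with few UMIs in the 33 knockout members has a wide interval. Of 213 recomputed shares, counts and medians, 149 stayed within the counting interval or, for counts, within 1.5 times of the original, as did 513 of 606 recomputed ratios of single genes. No paired analysis was possible because there is 1 library per genotype. The cause of the changes below was not tested.

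With at least 2 Foxp3 UMIs, members were 1.13% of knockout and 1.48% of control Cd3-positive nuclei; 4.57% and 2.16% of genes were at least 2-fold higher, the regulatory identity median was 1.05 in the knockout library and the helper cytokine median -1.13 in the control library; peaks called higher were 0% in both libraries and lower 0% in the knockout library; between genotypes 9.18% of genes were higher and 12.7% lower in knockout members. Under this limit 3 ratios changed sign: Snx13 (-0.42) and Tox in the Ikzf2 split (0.16) in the knockout library, and Il10 in the Ikzf2 split of the control library (-0.13). With no upper depth limit, 0.733% of genes were higher in knockout members, 3.22% in the knockout and 1.93% in the control library lower, the identity median was 0.19 in the control library, the helper cytokine medians were -0.15 and -0.91, 0.0974% of knockout peaks were higher, and 3 overlapping peaks were lower in both libraries. With at least 2 Cd3 UMIs, 0.219% and 0.155% of peaks were higher and the control helper cytokine median was -1.29. With exclusion by Klrg1 and Il1rl1 alone, members were 6.31% of control nuclei, 1.59% of control genes were higher, the knockout identity median was 0.59 and the helper cytokine medians were -1.70 and -1.96.

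Against Foxp3-negative nuclei without tissue-repair UMIs, 4.04% and 2.18% of genes were higher, with identity medians of 0.93 and 0.91 and helper cytokine medians of -1.78 and -1.91. With nuclei thinned to 1000 UMIs, 1.76% of control genes were higher, the helper cytokine medians were -2.24 and -2.25, and 51.6% of control members had an Ikzf2 UMI. With the minimum doubled, 1.46% of knockout genes were higher and 2% of control genes lower; peaks higher were 0% in both libraries and peaks lower 0.45% and 0.228%; between genotypes 2.12% were higher and 4.58% lower. With no minimum above 1, genes higher were 12.2% and 8.44%, genes lower 16.6% and 11.8%, peaks higher 13.3% and 11.7%, peaks lower 16.6% and 14.7%, overlapping peaks higher 560 and lower 842, and between genotypes 21% were higher and 13.2% lower. With a pseudocount of 2, genes lower were 3.63% and 1.69%, peaks higher 0.735% and 0.43%, peaks lower 0.301% and 0.354%, and 2.91% of genes were lower in knockout members. Leaving out the nucleus with the most UMIs of a gene was an alternative chosen after seeing the data. Every gene ratio recomputed that way kept its direction, among them Ctla4 at 1.15 and 1.35. Ctla4, Adamts6, Phlpp1 and Snx13, and the genes named as most extreme between genotypes, had been named under a limit on the share of UMIs in 1 nucleus. Removing 1 nucleus could therefore hardly change their direction. No conclusion is drawn from this on genes that 1 nucleus dominates.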
